A study of Mus musculus with 6 samples.

Results

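Very wide accessible domains were defined as autosomal intervals of at least 10000 bp in the peak list of this mouse kidney ATAC-seq study, an assay in which the Tn5 transposase cuts and tags open chromatin. The members were chosen by width alone, so their width is a description and is not tested. There were 937 such domains among 274808 distinct intervals on the autosomes, or 0.341%. They held 13.6 Mb of the 247 Mb of accessible sequence (5.48%) and 38206 of the 739345 summits, the local maxima that the peak caller marks inside an interval (5.17%). The libraries came from 3 WT mice and 3 Acly cKO mice, all with Control as their treatment label, and the labels give no age for them. The study's methods give ages for the mice of its injury models and cell isolations and name none for the ATAC-seq mice. The cKO mice carried Acly fl/fl alleles, which encode ATP citrate lyase, and the Ksp-Cre transgene, in which the Cdh16 promoter drives Cre in proximal tubules, distal tubules and collecting ducts, so other kidney cells keep the gene. The WT mice were littermates with the same floxed alleles and no Cre. The WT libraries came from batches 1 and 2 and the cKO libraries from batches 4 and 5, and the design does not separate the batches from the genotypes, which cannot be told apart.

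The deposited list is a single call over all reads together. It gives each interval and summit once, with no value per library, so no domain could be compared between genotypes and no value below has a replicate error. Bracketed ranges on shares are 95% Wilson intervals and cover counting error only. The depth of each library cannot be read from the list. A list entry for kidney tissue mixes many cell types, so fewer open cells and less accessibility per cell cannot be told apart. The tissue label was checked with defining genes. A start site in an accessible interval was present for 38 of 40 proximal tubule genes and 29 of 30 genes of the thick limb and distal tubule, against 9 of 25 genes that define other organs and 74.6% of all genes. The same held for 18 of 21 stromal and 18 of 20 endothelial genes, so this check set kidney apart from other organs and did not separate tubule from the other cells of the kidney.

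Nucleosomes leave short stretches of DNA free at promoters and enhancers, and most accessible sites in a genome are of that size. Wide stretches of open chromatin are known from many tissues where several enhancers and a promoter stand close together, often at genes that give a cell its identity, and also over genes that are transcribed at a high level. In the kidney the tubule is the bulk of the cortex, and its segments are known by their transporters: phosphate, glucose and amino acid carriers in the proximal tubule, sodium chloride carriers in the thick limb and distal tubule, and water channels and proton pumps in the collecting duct. Tubule identity is maintained by transcription factors of the HNF4 and PAX families, among others.

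Sequences at the strongest summit are shown for 10 domains, picked by gene or by motif, as examples of what lies at the highest point of a domain. The strongest summit is the one with the highest -log10 q value of the caller. Windows of 200 bp centred on that summit were read on the plus strand of GRCm39, and bases in untranslated exons were cut off. Capitals mark exact matches, on either strand, to any of the 14 short motifs searched. The first 5 windows are the highest summit of any domain (Cdh16), the strongest summit of the widest domain (Tns1) and those of a proximal tubule transporter (Slc6a19), an epithelial transcription factor (Elf3) and an immediate early gene (Junb).
Cdh16 (chr8:105351029-105351144): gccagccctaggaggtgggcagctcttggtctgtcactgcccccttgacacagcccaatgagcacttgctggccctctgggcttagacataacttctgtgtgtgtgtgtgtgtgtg
Tns1 (chr1:74052548-74052747): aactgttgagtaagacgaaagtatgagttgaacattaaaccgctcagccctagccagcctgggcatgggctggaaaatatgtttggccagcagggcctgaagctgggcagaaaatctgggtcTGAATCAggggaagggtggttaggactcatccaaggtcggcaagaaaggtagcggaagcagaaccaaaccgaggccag
Slc6a19 (chr13:73840560-73840759): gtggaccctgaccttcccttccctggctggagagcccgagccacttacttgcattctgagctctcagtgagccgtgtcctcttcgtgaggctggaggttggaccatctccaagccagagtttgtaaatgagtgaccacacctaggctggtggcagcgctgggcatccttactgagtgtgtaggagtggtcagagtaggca
Elf3 (chr1:135186307-135186419): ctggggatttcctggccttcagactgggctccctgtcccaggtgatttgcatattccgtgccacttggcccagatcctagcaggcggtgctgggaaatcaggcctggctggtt
Junb (chr8:85706856-85707055): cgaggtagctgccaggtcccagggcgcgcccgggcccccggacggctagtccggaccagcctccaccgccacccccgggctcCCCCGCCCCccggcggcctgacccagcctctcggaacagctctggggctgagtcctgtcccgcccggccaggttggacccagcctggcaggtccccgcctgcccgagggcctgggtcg
The Tns1 window held an AP-1 motif (TGANTCA), the letters bound by FOS and JUN proteins, and the Junb window held the SP and KLF motif (GGGGCGGGG). None of the 14 motifs was found in the trimmed Cdh16, Slc6a19 and Elf3 windows.

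The next 4 windows were picked among strongest summits with the HNF1 core (TTAATNATT), and the last holds a TEAD motif (ACATTCCA). They lie in introns of Pax8, a kidney lineage transcription factor, Stk39, the SPAK kinase that activates distal sodium chloride transport, Bicc1, an RNA-binding protein whose loss gives cystic kidneys in mice, Tns3, a tensin, and Rbpms, an RNA-binding protein.
Pax8 (chr2:24311637-24311834): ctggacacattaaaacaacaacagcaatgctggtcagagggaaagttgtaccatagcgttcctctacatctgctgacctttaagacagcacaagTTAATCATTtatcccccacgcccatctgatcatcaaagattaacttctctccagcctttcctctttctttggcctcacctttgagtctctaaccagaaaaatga
Stk39 (chr2:68218271-68218470): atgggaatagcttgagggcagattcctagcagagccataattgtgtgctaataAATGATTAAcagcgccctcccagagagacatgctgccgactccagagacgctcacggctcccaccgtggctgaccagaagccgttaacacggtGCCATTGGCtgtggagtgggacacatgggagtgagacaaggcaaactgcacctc
Bicc1 (chr10:70963881-70964080): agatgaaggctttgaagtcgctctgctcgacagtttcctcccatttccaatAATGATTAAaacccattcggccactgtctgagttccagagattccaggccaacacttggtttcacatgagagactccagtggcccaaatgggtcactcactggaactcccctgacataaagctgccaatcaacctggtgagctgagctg
Tns3 (chr11:8519292-8519491): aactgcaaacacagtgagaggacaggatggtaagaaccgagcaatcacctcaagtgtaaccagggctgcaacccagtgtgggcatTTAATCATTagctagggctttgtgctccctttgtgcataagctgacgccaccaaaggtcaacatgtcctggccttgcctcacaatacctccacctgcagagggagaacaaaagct
Rbpms (chr8:34289613-34289812): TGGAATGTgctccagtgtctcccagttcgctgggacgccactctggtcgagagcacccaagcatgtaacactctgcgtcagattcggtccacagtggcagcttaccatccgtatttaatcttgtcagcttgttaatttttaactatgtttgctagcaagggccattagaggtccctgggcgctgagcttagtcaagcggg
The Stk39 window also held the TFAP2 motif (GCCNNNGGC). The summits in these windows had a fold enrichment over the local background of 20.5 for Pax8, 20.8 for Stk39, 38.5 for Bicc1, 32.8 for Tns3 and 37.6 for Rbpms.

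Domain width had a median of 12559 bp and ran from 10002 to 97914 bp, with 269 domains of at least 15000 bp, 20 of at least 30000 bp and 9 of at least 40000 bp. About 25.1% of the domains were narrower than 11000 bp. The threshold cut through a continuous series of widths, with 22 domains within 100 bp above it and 27 intervals within 100 bp below it. The narrowest domain, 10002 bp beside Skida1, had 25 summits with a highest value of 55.5-fold, and the next, 10003 bp at Skil, had 30 summits with a highest value of 87.2-fold. The widest intervals left out were 9993 bp at Itm2b, with 22 summits and 39.3-fold, and 9990 bp at Atf7ip, with 25 summits and 49.6-fold. The number of domains also followed how intervals are joined: 4898 autosomal intervals reached 10000 bp when intervals less than 1000 bp apart were merged first, and 385 domains still spanned 10000 bp when only summits of at least 5-fold were counted.

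A very wide domain was a long row of closely spaced summits. The number of summits per domain had a median of 36, with 19 in the least and 287 in the most, and rose with width (the plot of summits by width). The density was 2.81 summits per kb, against 2.70 in intervals of 5 to 10 kb and 2.57 in intervals of 2 to 5 kb. It was 2.71 in the 37309 intervals of 1000 to 2000 bp and 4.06 in the 208904 under 1000 bp, which had a median of 1 summit. Density therefore did not rise steadily with width. Neighbouring summits stood a median of 300 bp apart, with quartiles of 203 and 445 bp. In intervals of 5 to 10 kb and of 2 to 5 kb the median spacing was 304 and 307 bp, and the 3 distributions lay nearly on top of each other (the plot of summit spacing). The median spacing was 283 bp in intervals of 1000 to 2000 bp and 208 bp in those under 1000 bp.

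**Figure D1:**
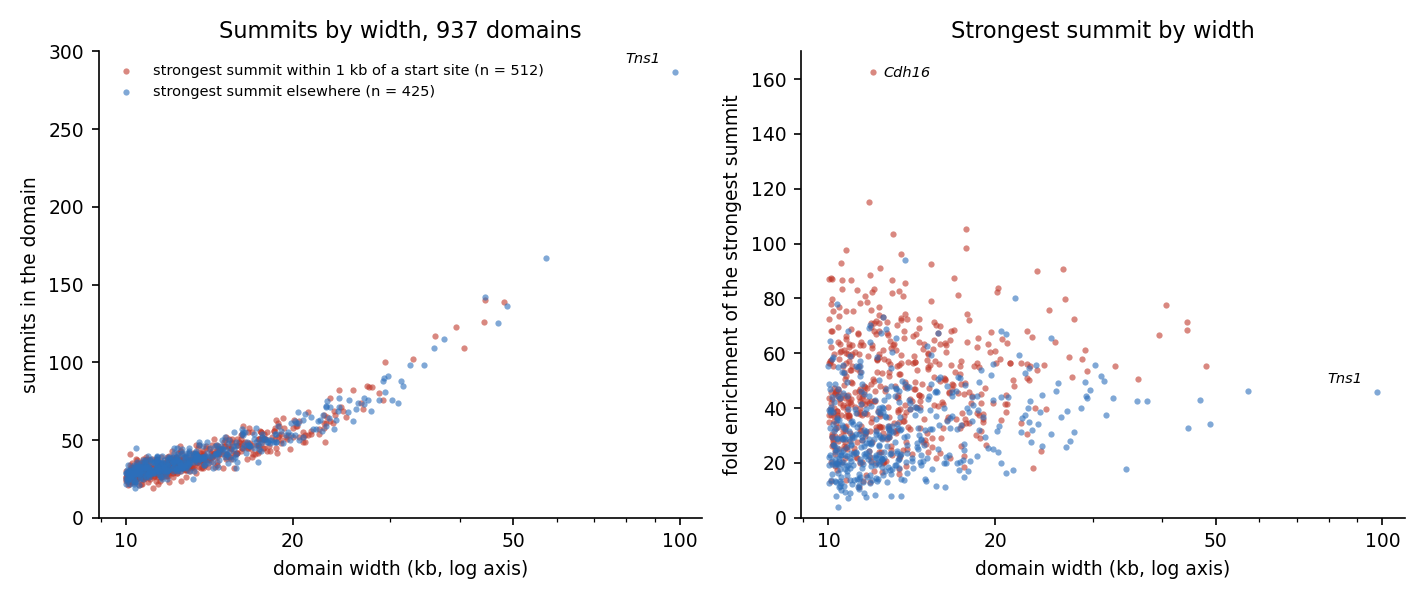
Each point is 1 of 937 domains, plotted by its width (kb, log axis) against its number of summits (left) and against the fold enrichment of its strongest summit (right); red marks the 512 domains whose strongest summit lay within 1 kb of a protein-coding start site and blue the other 425. Summit number climbs with width up to 287 at Tns1, while the strongest summits spread from 4.12- to 162.4-fold with the highest, at Cdh16, in a domain of 12013 bp.

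Most summits of a domain were low. The fold enrichment was under 5 in 64.4% of the domain summits and at least 20 in 6.28%, with a median of 3.93. Among all other autosomal summits these values were 82.7%, 2.82% and 2.55. A domain had a median of 12 summits of at least 5-fold, 5 of at least 10-fold and 2 of at least 20-fold. No summit reached 20-fold in 106 domains, 1 did in 231 and 5 or more did in 135. The strongest summit had a median of 39.2-fold, against 29.2-fold in intervals of 5 to 10 kb and 15.3-fold in those of 2 to 5 kb. It is the highest of a median of 36, 17 and 7 summits in these classes. A maximum rises with the number of summits, so these medians do not compare summits of like standing. Summits of at least 5-fold spanned a median of 75.01% of the domain, and those of at least 3-fold spanned 90.3%. Summits of at least 5-fold fell into a median of 4 clusters separated by 1000 bp or more.

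The share of summits at 5-fold or more varied widely between domains, from 0 to 91.1% with a median of 33.9%. It was at least 75% in 12 domains and at most 10% in 26. At Ndrg1, a stress-responsive gene of differentiated epithelia, 112 of 123 summits in 39441 bp reached 5-fold and 2 reached 20-fold. Cdh16, which encodes the kidney-specific Ksp-cadherin, held 2 domains. In the narrower, of 12013 bp around its canonical start, 6 of 38 summits reached 5-fold and 1 reached 20-fold. That 1 summit, 17 bp upstream of the start site, was the highest of any domain at 162.4-fold, and the next highest of the same domain was 8.64-fold. It alone gave 51.2% of the summed fold enrichment of its domain, against a median of 14.5% over all domains. The Ksp-Cre transgene of the cKO mice also carries Cdh16 promoter sequence, and its part in this value was not tested. The wider Cdh16 domain, 14445 bp set 373 bp apart, had 41 summits, of which 6 reached 10-fold and the highest was 39.9-fold. Together the 2 domains covered 98.3% of the gene. At Junb, a subunit of AP-1, 15 of 50 summits in 20496 bp reached 20-fold and stood in several groups (the plot of summits along 6 domains).

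**Figure D2:**
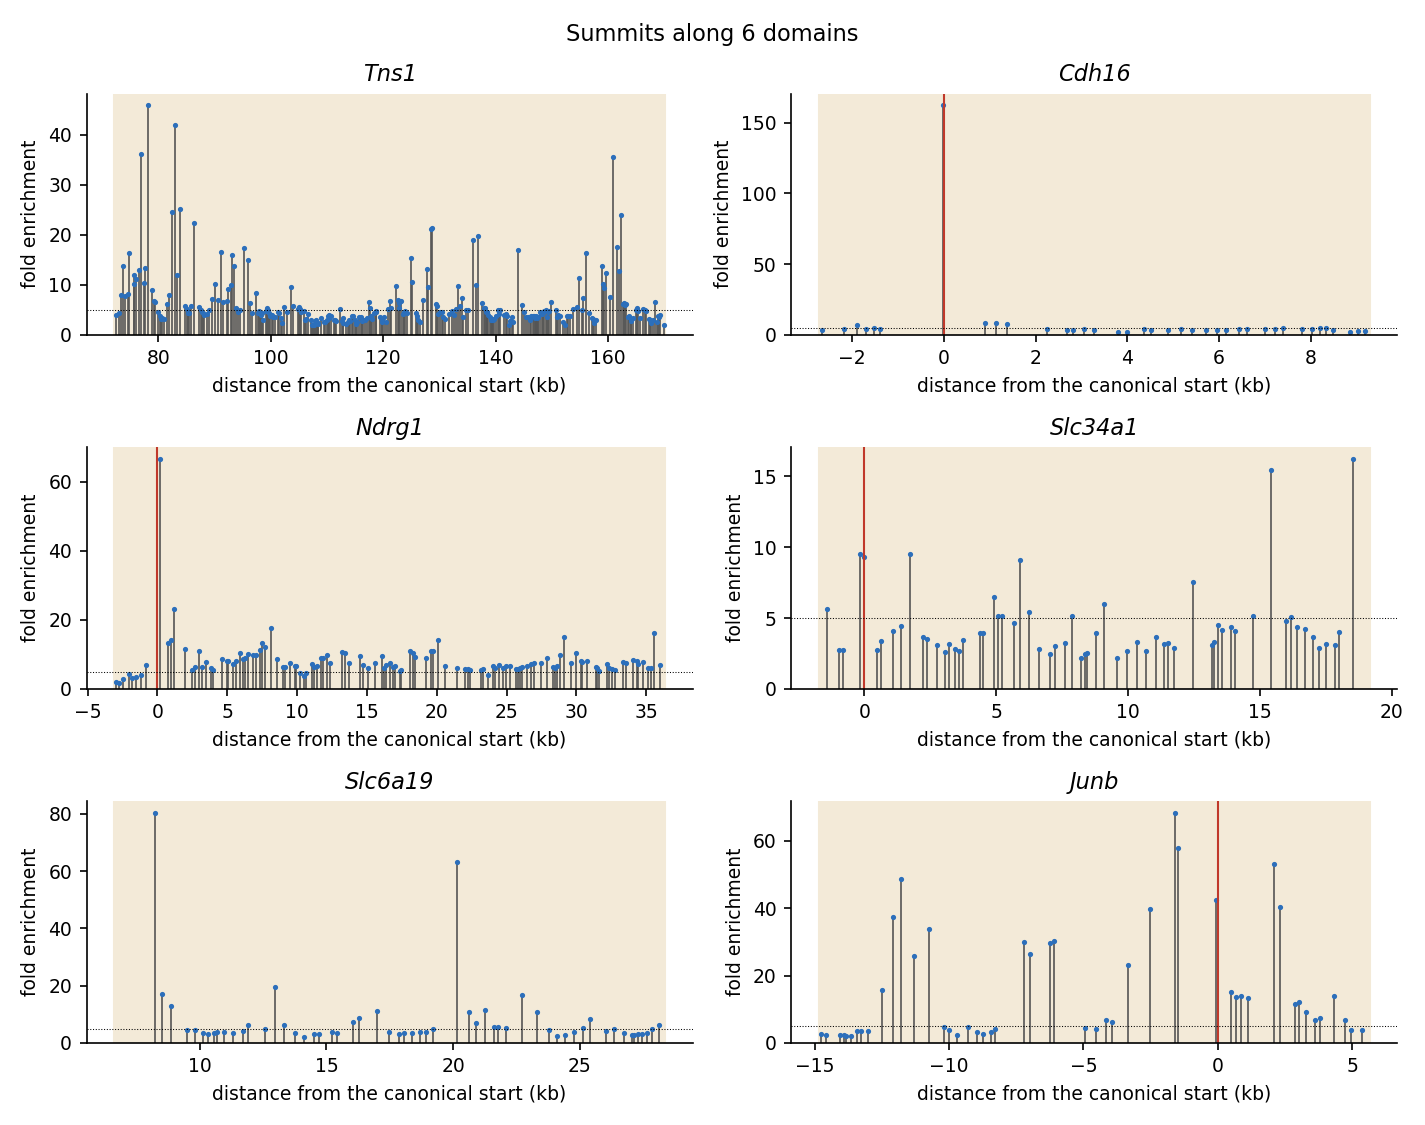
Summits along 6 domains, with the distance from the gene's canonical start in kb on the horizontal axis (positive in the direction of transcription) and fold enrichment on the vertical axis; shading marks the domain, the red line the start where it lies inside and the dotted line 5-fold. Cdh16 has 1 summit of 162.4-fold at its start, Ndrg1 a row in which 112 of 123 summits reach 5-fold, and Junb 15 summits of at least 20-fold on both sides of its start. For Cdh16 the narrower of its 2 domains is drawn.

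The widest domain lay inside Tns1, which encodes tensin 1, a link between integrins and the actin cytoskeleton (chr1:73960747-74058660). Its 5 highest summits were 46.0-, 42.0-, 36.1-, 35.6- and 25.1-fold, and 4 of them fell between 76.9 and 83.8 kb downstream of the canonical start. The fourth lay at 160.8 kb. Summits of 21.2- and 21.3-fold stood between them, at 128.5 and 128.6 kb. A gap of 197 bp separated it from a further Tns1 domain of 31018 bp with 51.7-fold at its strongest summit. The next widest domains lay at Zmiz1, a transcriptional coregulator (57286 bp), over Mroh2a and the Ugt1a genes, the UDP-glucuronosyltransferases of detoxification (48818 bp), over Midn, Cirbp, Stk11 and 2 further genes (48078 bp), in Shb, an SH2 adaptor (46882 bp) and in Tns3 (44539 bp). The Midn domain held 22 summits of at least 20-fold, the most of any domain, whereas the Mroh2a domain held 3 although 115 of its 136 summits reached 5-fold. Others of the 15 widest lay at Cactin, Pip5k1c and the tight junction gene Tjp3 (44466 bp), the tetraspanin gene Cd82 (44340 bp), Mpv17l2 with Ifi30 and Pik3r2 (40754 bp), Ndrg1, the TGF-beta inhibitor gene Pmepa1 (37545 bp), the plectin gene Plec (36189 bp), Clmn (36004 bp) and Aopep with Fancc (34446 bp). The Aopep and Fancc domain had no summit of 20-fold, with 17.7-fold as its highest.

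After Cdh16, the highest strongest summits were 115.0-fold at Ripk2, a kinase of NOD receptor signalling, 105.3-fold at Zyx, the focal adhesion protein zyxin, and 103.6-fold at the zinc finger factor gene Klf13. Values of 92.6- to 98.5-fold followed at Zfp574, Mxd4, Gpr108, Spaca6, Arhgap35 and Kmt2b, a histone H3 lysine 4 methyltransferase. In 9 of these 10 domains the strongest summit lay within 191 bp of a start site. The exception was the Spaca6 domain, where it lay in an intron, 6850 bp from the nearest start.

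The domains were largely genic. A base of a protein-coding gene was present in 900 domains (96.1%), and a protein-coding start site in 686 (73.2%, 70.3 to 75.9%). Counts of this kind depend on how long an interval is. The start-site share was 60.6% with a minimum width of 5000 bp and 78.6% with 20000 bp. The share of narrower intervals that overlap a gene was not worked out. A start site of 1 gene lay inside 468 domains, of 2 genes inside 142 and of 3 or more inside 76, with at most 6. The domains with 6 were at Spsb3, Dbp and Maz. By bases, 21.3% of the domain sequence lay within 1 kb of a start site, 11.4% in other exons, 53.7% in introns and 13.5% outside genes. The other intervals had 14.3%, 6.51%, 47.2% and 32.0%, and the autosomes as a whole 2.74%, 3.03%, 36.1% and 58.1%.

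The strongest summit lay within 1 kb of a start site in 512 domains (54.6%, 51.4 to 57.8%), in an intron in 307 (32.8%), outside genes in 81 (8.64%) and in another exon in 37 (3.95%). The same share was 50.02% in intervals of 5 to 10 kb and 33.6% in those of 2 to 5 kb. It lay within 100 bp of a start in 324 domains and within 10 kb of one in 717 (76.5%). Its fold enrichment had a median of 46.4 at a start site and 30.3 elsewhere. Of the 2401 domain summits of at least 20-fold, 1313 (54.7%) lay within 1 kb of a start site and 614 (25.6%) more than 5 kb away.

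Domains with the start site of a single gene extended mainly into that gene. Domains that reached a start site of another gene, on either side, were left out of this count, which can shorten the upstream arm. In the 368 domains with the start site of a single gene and its canonical start inside, the domain reached a median of 3400 bp upstream and 9047.5 bp downstream of that start. The downstream arm was the longer in 303 of them (82.3%), and in 78 it ran past the end of the gene. In 6150 intervals of 2 to 5 kb counted the same way the arms were 1208 and 1817.5 bp and the downstream arm was the longer in 74.7%. The median share of the width that lay downstream was 74.4% in domains and 60.3% in those intervals. Summits within 250 bp of the start had a median of 32.1-fold. The median was 15.8-fold over the nearest kb downstream, 6.35-fold over the next, 4.98-fold over the kb after that, and 3.47- to 4.12-fold in each kb from 3 to 12 kb. Upstream it was 9.39-fold over the nearest kb and 3.34- to 3.67-fold in each kb beyond.

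**Figure D3:**
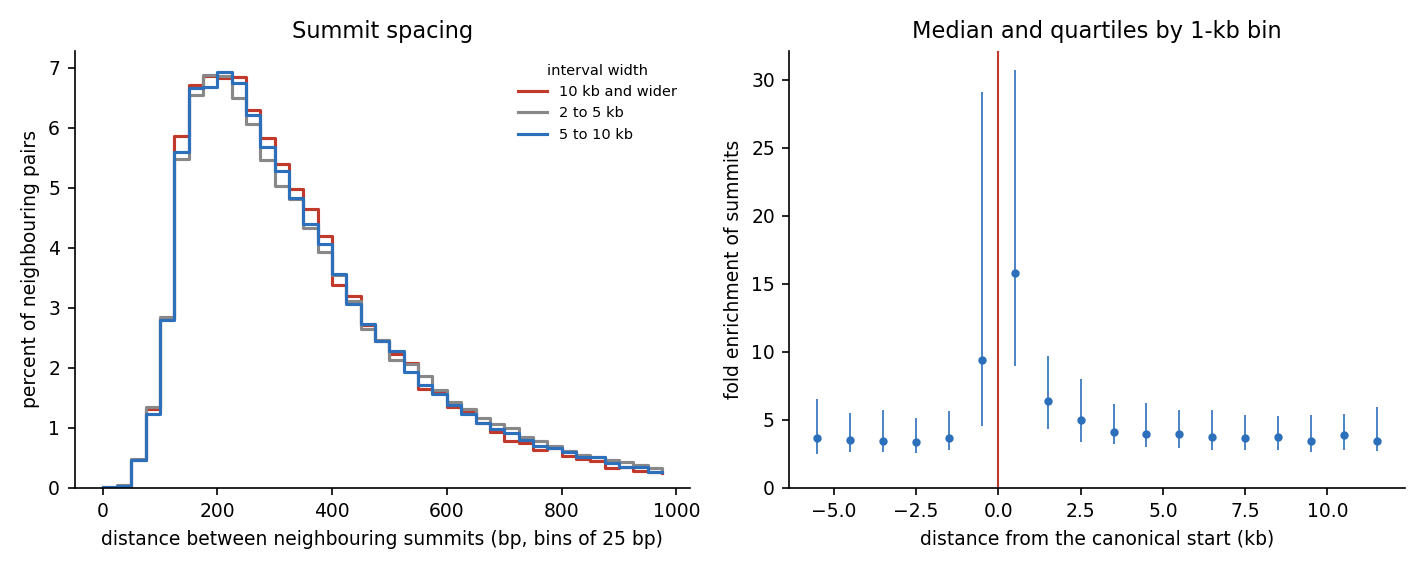
Left, the distance between neighbouring summits (bp, bins of 25 bp) as a percent of all neighbouring pairs in domains of 10 kb and wider (red), intervals of 5 to 10 kb (blue) and of 2 to 5 kb (grey), with medians of 300, 304 and 307 bp. Right, the median fold enrichment of domain summits, with bars from the lower to the upper quartile, in bins of 1 kb around the canonical start (red line) of 368 genes: it is 9.39 in the nearest upstream bin, 15.8 in the nearest downstream bin and 3.47 to 4.12 beyond 3 kb.

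**Figure D4:**
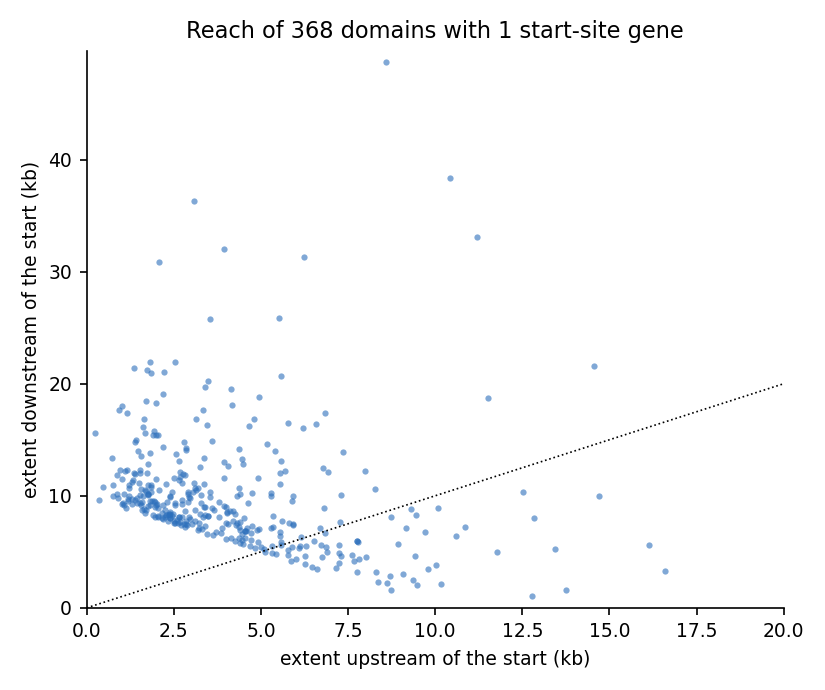
Each point is 1 of 368 domains with the start site of a single gene, plotted by how far the domain reached upstream and downstream of the canonical start (kb); the dotted line marks equal arms. Points above the line, 303 of them, are domains with the longer arm downstream.

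Of 20621 protein-coding autosomal genes, 1325 had a base in a domain, which is 6.43%, and 975 had a start site in 1, which is 4.73%. Among the 10634 genes with a start site in an interval of at least 20-fold, whatever its width, 942 had a start in a domain, which is 8.86%. The genes with a start inside a domain were not long. Their median length was 13.6 kb against 19.3 kb over all genes, a median of 64.1% of such a gene was covered, and 322 genes lay wholly inside a domain. More than 1 domain fell in 141 genes, among them Rbpms and Hpcal1 with 4 each. The genes with any base in a domain had a median length of 16.2 kb. The gene lists below were not matched to all genes for length, on which the share with any base can depend. Among the tubule lists the median length ran from 24.3 kb for collecting duct genes to 57.3 kb for transcription regulators.

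Of 40 proximal tubule genes, 10 had a base in a domain (against 6.43% of all genes) and 7 a start site in 1 (17.5%, against 4.73%). The interval at the start of the proximal tubule genes had a median width of 4449.5 bp, against 3156.5 bp over all genes with such an interval. Slc34a1, the main phosphate carrier of the proximal tubule, lay wholly inside a domain of 20886 bp. That domain had 63 summits but no summit of 20-fold. Its values at the start were 9.56- and 9.30-fold, and its highest, 16.2-fold, lay 18.5 kb downstream of the start, beyond the end of its canonical transcript at 15.9 kb. Slc6a19, the apical carrier of neutral amino acids, had another form. Its domain of 21750 bp began 6.62 kb downstream of the start and held 2 tall summits. They were 80.3-fold at 8.24 kb and 63.1-fold at 20.2 kb, with 19.5-fold as the next. The domain ran on to 28.4 kb, past the end of the canonical Slc6a19 transcript at 21.0 kb. The start site inside it was that of another gene, Slc6a18.

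Pck1, the rate-limiting enzyme of gluconeogenesis, lay wholly inside a domain of 10160 bp with 29.8-fold 157 bp upstream of its start. Fbp1, a further enzyme of that pathway, had a domain of 11017 bp that lay partly in the gene and ran past its end, with a highest summit of 12.4-fold. Aqp1, the water channel of the proximal tubule, had its highest summit, 35.1-fold, 181 bp downstream of its start, and Slc27a2, a fatty acid transporter, had 29.8-fold at 582 bp. Ggt1, a brush border enzyme of glutathione breakdown, held 5 summits of at least 20-fold in 11463 bp. Slc26a1, a sulfate carrier, and Slc7a7, a basolateral carrier of cationic amino acids, had strongest summits of 32.5- and 20.3-fold. Slc34a3, a further phosphate carrier, was touched over 7.74% of its length by a domain whose strongest summit, 26.3-fold, lay at the start of another gene.

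Of 30 genes of the thick limb and distal tubule, 5 had a base in a domain (16.7%, against 6.43% of all genes) and 4 a start site (13.3%, against 4.73%). Atp1b1, the beta subunit of the sodium pump, which drives transport in all tubule segments, had 24265 bp with 26.2-fold inside the gene, 12.4 kb from its start. Fxyd2, the gamma subunit of the pump, was covered by 2 domains of 10286 and 13838 bp set 155 bp apart, and 31 of 38 summits of the wider reached 5-fold. Slc12a3, the thiazide-sensitive carrier of the distal tubule, had a domain of 12414 bp with 38.2-fold in an intron 25.1 kb from its canonical start. Stk39 had 14173 bp inside the gene, with its strongest summit 84.3 kb from the start.

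Of 22 collecting duct genes, 4 had a base in a domain (18.2%, against 6.43%) and 2 a start site (9.09%, against 4.73%). They were Atp6v0a4, a subunit of the proton pump of intercalated cells (14727 bp, 48.8-fold 63 bp upstream of its start), Gata3, a transcription factor of the duct (20826 bp, 41.4-fold), Tfcp2l1, a regulator of intercalated cells (11658 bp, 30.6-fold in an intron) and Hsd11b2, which inactivates glucocorticoids (10804 bp, 17.2-fold). The Hsd11b2 domain covered 38.4% of that gene and did not hold its start. Its strongest summit lay past the gene's end, 8583 bp from the start of a gene of 5.25 kb. Gata3 and Tfcp2l1 also belong to the list of regulators. Of 49 tubule transcription regulators, 10 had a base in a domain (20.4%, against 6.43%) and 6 a start site (12.2%, against 4.73%), although 41 had a start site in an interval of at least 20-fold. The median length of these 49 genes was 57.3 kb, against 19.3 kb over all genes. Pax8 held 2 domains, of 11387 and 14540 bp, neither at its start, and the narrower ran past the end of the gene. Elf3 lay wholly inside 16582 bp with 64.9-fold 14 bp upstream of its start. Pou3f3, a factor of the loop of Henle, had 16708 bp with 47.0-fold 784 bp downstream of its start, and Hoxb7 lay wholly inside 19417 bp with 25.6-fold. Nfib, a nuclear factor I gene of 415.6 kb of which 2.86% was covered, had 6 summits of at least 20-fold in 11878 bp, the highest 70.4-fold. Bcl6 and Zbtb16, zinc finger repressors, had domains of 15409 and 16585 bp, and Esrra, a nuclear receptor of mitochondrial genes, was covered in part by a domain led by 44.6-fold at a neighbouring start.

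**Figure D5:**
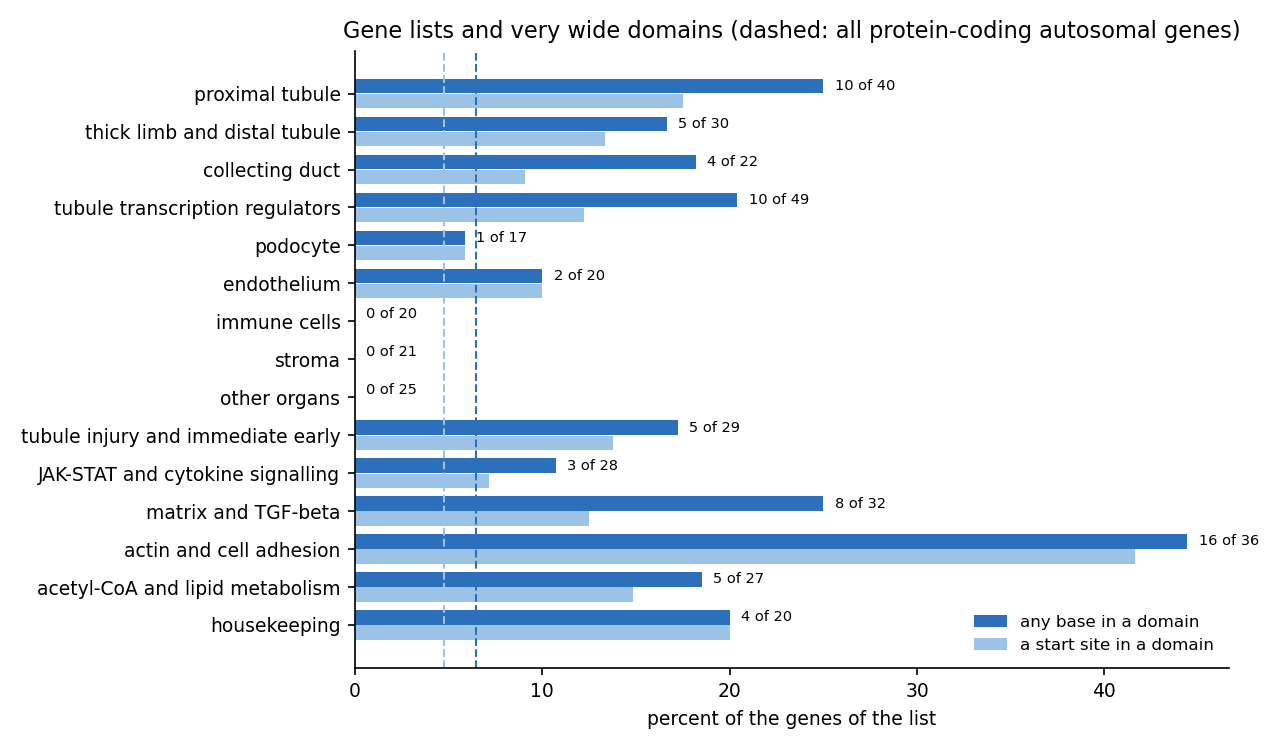
Percent of the genes of each list with any base (dark bars) or a start site (light bars) in a domain, with counts beside the dark bars; dashed lines mark 6.43% and 4.73%, the values for all protein-coding autosomal genes. The actin and cell adhesion list reaches 16 of 36 genes and the immune, stromal and other organ lists 0.

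None of the 20 immune, 21 stromal and 25 other organ genes had a base in a domain, but only 3, 5 and 2 of them had a start site in an interval of at least 20-fold. The podocyte list had 1 of 17 (5.88%), Synpo, and the endothelial list 2 of 20 (10%), Mecom and Egfl7. Of 36 genes of actin and cell adhesion, a list drawn up with the width of the Tns1 domain known, 16 had a base in a domain (44.4%, against 6.43%) and 15 a start site (41.7%, against 4.73%). These genes are long, with a median of 99.8 kb, and all 36 had a start site in an interval of at least 20-fold. Of all genes with a start in such an interval, 8.86% had a start in a domain. Besides Tns1 and Tns3 the widest was Myh9, non-muscle myosin (26851 bp, 26.0-fold in an intron 19.9 kb from its start). Housekeeping genes, which every cell uses, had 4 of 20 (20%), with Tubb5 in 21547 bp, Eef2 in 13323 bp and Rpl13a in 11293 bp. All 4 had a start site in a domain (20%, against 4.73% of all genes). That start-site share was above those of the tubule lists, which ran from 9.09 to 17.5%. The share with any base, 20% against 6.43%, was below that of proximal tubule genes (25%) and tubule regulators (20.4%).

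Of 29 injury and immediate early genes 5 had a base (17.2%, against 6.43% of all genes) and 4 a start site (13.8%, against 4.73%). Ier3 shared the domain of 21547 bp with Tubb5, Junb had 20496 bp and Itgb6, an integrin of injured tubules, 13048 bp. Of 32 genes of matrix and TGF-beta signalling 8 had a base (25%) and 4 a start site (12.5%). The median length of these 32 genes was 53.5 kb, against 19.3 kb over all genes. The widest domains were at Smad7 (21605 bp), an inhibitor of that pathway, Col4a2 (19184 bp) and Smad3 (17558 bp). This Col4a2 domain held no Col4a2 start. Its strongest summit lay past the end of the gene, 151431 bp from the start of a gene of 136.8 kb. Of 28 genes of JAK-STAT and cytokine signalling 3 had a base (10.7%) and 2 a start site (7.14%), and 2 of the 25 with a start in an interval of at least 20-fold had a start in a domain, near the 8.86% of all such genes. The 3 were Stat6, Jak3 and Nfkbia, in domains of 15887, 12460 and 11363 bp. The Stat6 domain covered 22.1% of that gene and held no Stat6 start. Its strongest summit lay past the gene's end, near the start of another gene. Of 27 genes of acetyl-CoA and lipid metabolism 5 had a base (18.5%) and 4 a start site (14.8%), led by Pnpla2, a triglyceride lipase (17639 bp), Angptl4, an inhibitor of lipoprotein lipase (12596 bp) and Acss1, a mitochondrial acetyl-CoA synthetase (11737 bp). Acly, the gene deleted in the cKO tubule, was not in a domain and had an interval of 6066 bp with 14 summits and 50.2-fold at its start.

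A protein-coding gene was absent from 37 domains, and 33 of these overlapped a long non-coding RNA. The widest, 29185 bp with 90 summits, lay nearest to Cebpb, and its strongest summit, 44.5-fold, lay 76385 bp from that start. The others among the 5 widest were 22619 bp over Malat1, a nuclear RNA of most cells, 22360 bp nearest to 1700001O22Rik, 22051 bp nearest to Fzd4, with 59.3-fold, and 18034 bp in the Hoxb cluster beside Hoxb9. The domain over Neat1, which organises paraspeckles, began 211 bp after the Malat1 domain, measured 32589 bp and had 88 of 98 summits at 5-fold or more. Neat1 was singled out after its values were seen.

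Genes of 81 microRNAs lay in 61 domains, and 68 of them had mature sequences in the RefSeq table. These were looked at after the domains had been found. No share over all autosomal microRNA genes was worked out, so the count of 81 has no background to be read against. Both genomic clusters of the miR-200 family, microRNAs that keep epithelial cells from turning mesenchymal by repressing Zeb1 and Zeb2, lay in very wide domains. The cluster of miR-141 and miR-200c was in a domain of 14266 bp at Emg1, Phb2 and Ptpn6, and that of miR-200a, miR-200b and miR-429 in 10063 bp at Ttll10. The mature strands are shown because the 5 fall into 2 seed groups that each draw on both domains, and capitals mark the seed, bases 2 to 8.
mmu-miR-200b-3p: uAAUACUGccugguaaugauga
mmu-miR-200c-3p: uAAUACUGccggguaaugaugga
mmu-miR-429-3p: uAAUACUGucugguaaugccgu
mmu-miR-200a-3p: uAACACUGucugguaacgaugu
mmu-miR-141-3p: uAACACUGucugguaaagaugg
The first 3 shared the seed AAUACUG and the last 2 AACACUG. Other microRNA genes in domains were Mir21a, raised in injured tubules, in 14649 bp over Vmp1 and Tubd1, the let-7b and let-7c-2 genes in 17038 bp near Ppara, Mir126a in 16190 bp at Egfl7, and Mir23b, Mir27b and Mir24-1 in the 34446 bp domain of Aopep and Fancc.

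GC content averaged 51.6% over the domains (SD 3.73) and 48.5% in the flanks of the same width on either side, and it was higher in the domain in 866 of 937 (92.4%), by 3.16 percentage points on average. Narrower intervals showed the same, with a higher GC content than their flanks in 90.9% of those of 5 to 10 kb and 89.4% of those of 2 to 5 kb and larger mean differences of 3.79 and 4.48 percentage points. Where the strongest summit lay at a start site its 200 bp averaged 66.0% GC, and 74.0% of these windows had an observed over expected CpG ratio of at least 0.6, the level of CpG islands. Elsewhere the values were 56.5% and 13.9%. In intervals of 2 to 5 kb the same share was 75.8% at start sites and 6.54% elsewhere.

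The motif content of domain summits was read in 200 bp windows against all other autosomal summits of the same fold class. Of domain summits of at least 20-fold away from start sites, 17.7% held AP-1 (20.8% of the others), 3.86% the HNF1 core (5.00%), 3.31% TEAD (2.52%), 1.56% HNF4, searched as CAAAGTCCA (1.90%), and 6.16% the SP and KLF motif (3.23%). At start sites 19.0% held the SP and KLF motif (19.2%) and 3.50% the ETS motif CCGGAAGT (6.84%). At summits of 5- to 20-fold, where 11192 lay in domains, 8.46% held AP-1 against 14.6% of the others and 0.93% the HNF1 core against 2.59%. Summits under 5-fold held AP-1 in 4.88% against 7.95% and the HNF1 core in 0.41% against 0.89%. Over all summits of at least 20-fold, with and without a start site, 11.0% of those in domains held AP-1 against 9.96% of the others, and 2.21% held the HNF1 core against 2.18%. At start sites alone these were 5.41% against 3.59% and 0.84% against 0.52%. Domain summits thus had the lower share of both motifs in each class under 20-fold and, at 20-fold or more, away from start sites, but the higher share at start sites. The classes under 20-fold pool summits at and away from start sites, so a different make-up of the 2 sides was not set apart there. These are exact matches to short letter strings, and a match is not a bound site.

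Among strongest summits the HNF1 core was present in 24 of 425 away from start sites (5.65%) and in 2 of 512 at start sites (0.39%). AP-1 was present in 84 (19.8%) and 24 (4.69%), and the SP and KLF motif in 23 (5.41%) and 110 (21.5%). Counted over whole domains, the HNF1 core stood at some summit in 207 domains (22.1%), with up to 5 such summits in the domain of Them7. AP-1 did so in 837 (89.3%), with 17 such summits at Tns1. Counts of this kind depend on how many summits a domain holds, a median of 36. Over all domain summits, 0.67% held the HNF1 core (1.17% of the other summits) and 6.31% held AP-1 (8.97%).

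The domains were unevenly spread. Chromosome 7 held 95 and chromosome 17 held 62, with 6.55 and 6.51 per 10 Mb, whereas chromosome 3 held 27, with 1.69. Per 100 protein-coding genes the range was 2.72 on chromosome 3 to 6.88 on chromosome 15. The gap between neighbouring domains had a median of 411 kb, yet 122 gaps were under 10 kb and 52 under 1000 bp. Short gaps split domains within Fxyd2, Smad7, Ndrg1, Nfic and Gse1, between Psd4 and Pax8 (144 bp), between Hoxb9 and Hoxb7 (167 bp) and between Midn and Fam174c (140 bp). Joined, the pair at Tns1 covered 129129 bp.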

How the data were processed

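ATAC-seq was measured in nuclei of kidney cortex from 3 WT and 3 Acly cKO mice. The authors trimmed reads with fastp and, per the submitters' processing notes, aligned them with Bowtie2 2.3.4.3 to mm39 (GRCm39) and called peaks with MACS3 3.0.0 at a q value of 0.05 with summit splitting. Duplicates, non-unique reads, blacklisted regions and non-standard chromosomes were removed by the authors, the regions with BEDTools 2.29.1. The deposited list gives for each summit a fold enrichment, which is a ratio over the local background, a -log10 q-value, a score derived from it and an offset in bp that places the summit within its interval. All libraries were pooled before calling, and whether a pair of earlier deposited WT libraries entered the pool is not given in the sources used here. The shift and extension of reads and the joining of nearby enriched positions set the width of an interval.

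Distinct autosomal intervals of at least 10000 bp were taken from the filtered list, and genes, start sites and sequence from GENCODE M39 and GRCm39, the build of the files. Start sites are those of all protein-coding transcripts. The strongest summit is that with the highest -log10 q, and a promoter lies within 1000 bp of a start site. Besides the motifs spelled out with the results, the strings AGGTCAAAG (PPAR-RXR), TCAAGGTCA (ERR), AACCGGTT (GRHL), TGTTTAC (forkhead), CAGGGGGCG (CTCF), TGACGTCA (CREB) and GCGCATGCG (NRF1) were searched on both strands, of which the PPAR-RXR and ERR strings share letters. Mature microRNA sequences are from RefSeq (GRCm38.p6), matched by symbol. Python 3.11.15, pandas 2.3.3, numpy 2.4.6 and SciPy 1.17.1 were used, and the functions were checked on simulated intervals. No test was made, since the list has no value per library, and the alternatives were other widths, merged intervals, stricter summits, canonical transcripts and narrower motif windows. The members and the gene lists were chosen with earlier results of these data known. Genes were named if they lay in the 15 widest domains or the 10 with the highest summit, if they belonged to a tubule list, if they were among the 3 with the widest domain of another list or if they were nearest to the 5 widest domains without a gene. Genes named outside that rule were chosen after their values were seen. Some items that fall under this rule are not reported here.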

Additional observations from a re-analysis of the deposited data

How the results depend on the processing

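With a minimum width of 5000 bp there were 5557 domains with a median of 19 summits 303 bp apart, 60.6% held a start site, 50.8% had their strongest summit at 1, 4823 genes were overlapped, summits of at least 5-fold kept 56.1% of the width and GC averaged 50.7%. With 20000 bp these values were 103, 69, 300 bp, 78.6%, 47.6%, 179 genes, 86.9% and 52.4%. With intervals under 1000 bp apart merged first there were 4898 domains with a spacing of 320 bp, 66.4% with a start site, 5685 genes, 66.2% of the width kept and 48.8% GC. A span of 10000 bp by summits of at least 5-fold left 385 domains. Only summits with a -log10 q of at least 5 gave 32 per domain, 323 bp apart. Canonical transcripts alone gave 62.4% with a start site and 46.0% with the strongest summit at 1. A 3-fold minimum kept 90.3% of the width. In windows of 100 bp, 13.0% of domain summits held any of the 14 motifs, against 22.0% in 200 bp, and over all summits the order of domains and other intervals stayed for all 14. Among summits of at least 20-fold away from start sites it turned for 2 of 14, HNF4 (1.19% in domains against 1.15%) and CTCF (0.46% against 0.55%). It also turned for 2 under 5-fold, for 2 over all of at least 20-fold and for 3 at start sites of at least 20-fold. Counting start sites in place of any base took the collecting duct list from 4 to 2 genes, tubule regulators from 10 to 6 and matrix genes from 8 to 4. For 6 of the 34 values recomputed on the main results the value stayed inside its interval or within 1.5 times the count.

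No paired analysis was possible because the list has no column per library, and for that reason each result stands without a check by replicate. Depth per library is unknown and no width was set against it.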

Other observations

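The X chromosome, which the autosomal rule leaves out, had 3 intervals of at least 10000 bp among 4652, or 0.0645%. They lay at Akap17a (16701 bp, 49 summits, 56.2-fold), Shroom4 (12193 bp, 32 summits, 30.7-fold) and Cldn2, a claudin of the proximal tubule (11134 bp, 24 summits, 20.6-fold). The Y chromosome had 0.

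The domain with the lowest strongest summit lay over Ctu2 and Piezo1 and reached only 4.12-fold in 10406 bp. It was followed by 7.33-fold at Trpm8, the cold receptor gene, in 10828 bp, where the lowest summit was 3.21-fold. The highest median over the summits of a domain was 15.3-fold at Ptch1, the hedgehog receptor gene.

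The authors' filter removed 286 autosomal summits, and 4 of the peaks removed had summits spanning at least 10000 bp, the widest 27871 bp.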
